A study of Mus musculus with 3 samples.

Results

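Cluster 9 is a group of astrocyte-like nuclei in single-nucleus RNA sequencing data of the mouse olfactory bulb (OB). Its members are the nuclei that the deposited annotation gives cluster number 9, and they numbered 1136 of 31703 retained nuclei in 22 clusters. The series holds 1 group of 3 adult C57Bl/6 mice, with 1 library per mouse, so there is no comparison between conditions and the mice served as replicates. Every mouse had received retroAAV-CAG-H2B-GFP, a retrogradely transported virus that labels nuclei with green fluorescent protein, in the piriform cortex (PCx) and in the anterior olfactory nucleus (AON), and no uninjected animals enter these data. OB nuclei were then sorted for GFP and for the DNA dye DRAQ5, with a scatter gate against doublets. The CAG promoter is not specific to a cell type, and the sort was meant to enrich projection neurons, so shares of glial nuclei are shares of sorted nuclei and not of the tissue.

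Astrocytes are glial cells whose fine processes wrap synapses and whose endfeet cover blood vessels. They take up glutamate and GABA, buffer potassium and water, are coupled to each other by gap junctions, supply lipids and lactate, and sense transmitters through G protein-coupled receptors. In the OB they lie in all layers, including the glomeruli, and a separate glial type, the olfactory ensheathing glia, accompanies the sensory axons that enter the bulb.

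The share of nuclei in cluster 9 was taken per mouse. Cluster 9 held 188 of 5845 nuclei in mouse 1 (3.22%, exact 95% binomial interval 2.78 to 3.70), 757 of 21105 in mouse 2 (3.59%, 3.34 to 3.85) and 191 of 4753 in mouse 3 (4.02%, 3.48 to 4.62). The mean was 3.61% ± 0.401 (SD, n = 3 mice), and the intervals of the mice overlapped. These intervals cover counting error only. Nuclei of cluster 9 that held no UMI of the neuronal markers Gad1, Gad2, Slc17a7, Slc17a6 or Tbx21 made up 1.54% ± 0.796 of all retained nuclei, which varied more between mice than the share of nuclei in cluster 9 as a whole. Nuclei of cluster 9 were shallower than the rest. Their median number of UMIs (unique molecular identifiers, 1 per molecule of RNA that was captured) was 3839.5, 5364 and 6063 in mice 1, 2 and 3, against 8114, 8520 and 10894 in all other nuclei. Their median gene number was 1655, 2206 and 2131. Summed over nuclei, cluster 9 held 951133, 5373028 and 1323946 UMIs, so that mouse 2 gave the most precise levels. Between pairs of libraries, 82 barcodes of retained nuclei were shared, and no such barcode lay in cluster 9 in both. A gene with no UMI in cluster 9 could still stand at up to 3.15, 0.558 and 2.27 CPM in mice 1, 2 and 3, the limit of 3 counts.

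The levels of the 4 marker genes Slc6a11, Gpc5, Aqp4 and Ntsr2 were read first. These markers were given for the cluster beforehand, so their levels are no independent check of the label. UMIs were summed over the nuclei of a cluster in each mouse and divided by that sum and multiplied by 1000000 (CPM). Slc6a11, which encodes the GABA transporter GAT3, stood at 1236, 711 and 1037 CPM in mice 1, 2 and 3. The heparan sulfate proteoglycan gene Gpc5 stood at 6595, 4980.1 and 7787 CPM. Aqp4, the water channel of astrocyte endfeet, stood at 640.3, 386 and 554 CPM. Ntsr2, a neurotensin receptor, stood at 517, 337 and 564 CPM. Mouse 2 was the lowest of the 3 mice for each marker, and still lay above every other cluster. The highest mean level elsewhere was 40.8 CPM for Slc6a11 (cluster 6), 1476 CPM for Gpc5 (cluster 19), 44.2 CPM for Aqp4 (cluster 21) and 35.3 CPM for Ntsr2 (cluster 11). Because clusters were formed on these same counts, the levels of cluster 9 against other clusters are given as a description, with no test.

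**Figure D1:**
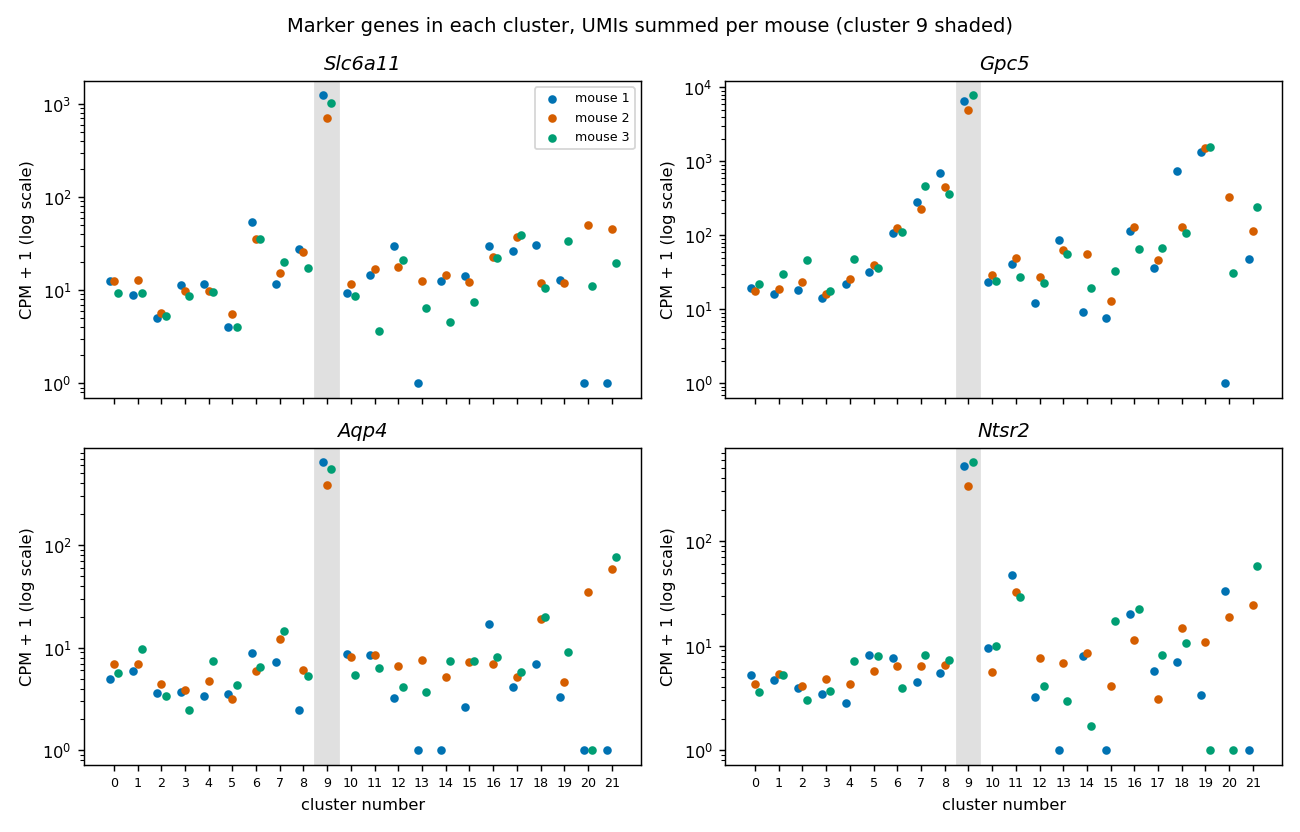
Level of the marker genes Slc6a11, Gpc5, Aqp4 and Ntsr2 in each of the 22 clusters, as CPM + 1 on a log axis, with 1 point per mouse and cluster 9 shaded. In cluster 9, Gpc5 lies between 4980.1 and 7787 CPM, and in each panel all 3 mice of cluster 9 lie above every point of the other clusters.

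A wider astrocyte list of 14 genes includes the 4 markers. All 14 reached at least 0.25 of their highest cluster level in cluster 9, and 12 of the 14 were highest there. Markers of other glial and vascular classes were near 0 or low, whereas neuronal RNA was present. The neuron list (Syt1, Snap25, Rbfox3 and Nrxn3) summed to 4271, 7495 and 3091 CPM in mice 1, 2 and 3, against 23085 CPM in cluster 1, and 1 of its 4 genes reached 0.25 of its highest level. The GABAergic list summed to 1097 to 2174 CPM, and 2 of its 4 genes (Slc32a1 and Meis2) reached that level. The ependymal list had its highest sum in cluster 9, at 6.14 to 13.6 CPM, and 3 of its 4 genes reached that level, with no gene of it above 9.06 CPM in any mouse of cluster 9. The lists of oligodendrocyte precursors (237 to 424 CPM), projection neurons (86.1 to 157 CPM) and immature neurons (62.7 to 226 CPM) had no gene that reached it, with Tubb3 of the last list at 0 in every cluster and so without a value. The oligodendrocyte list (Mobp, Mog, Mag, Mbp and 4 more) summed to 98.2 to 209 CPM per mouse, against 23725 CPM in cluster 16, and 0 of its 8 genes reached 0.25 of their highest level. The microglia list summed to 83.1 to 108 CPM, against 5320.0 CPM in cluster 20. The endothelial, pericyte and fibroblast lists summed to at most 91.5 CPM in any mouse, with Lum and Abcc9 at 0 in all mice. Of these lists, 1 of 5 endothelial genes (Tek) and 1 of 4 pericyte genes (Pdgfrb) reached 0.25 of their highest level, and 0 of 5 fibroblast genes did. The pericyte sum was nearly all Pdgfrb, at 89.4, 48.9 and 74.02 CPM, a growth factor receptor gene that stood at 177 ± 81.2 CPM in cluster 18. The list of olfactory ensheathing glia summed to 401 to 586 CPM, against 18850.0 CPM in cluster 11. Sox10, which ensheathing glia and the oligodendrocyte lineage share, stood at 2.10, 1.12 and 2.27 CPM. On these markers cluster 11 was called ensheathing-glia-like (its Ngfr level was 0.197 CPM), cluster 16 oligodendrocyte-like, cluster 19 oligodendrocyte-precursor-like (OPC-like) and cluster 20 microglia-like. Cluster 18 carried endothelial, pericyte and fibroblast markers together and was left without a name.

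The promoters of the marker genes on chromosomes 6, 12 and 14 are shown for their sequence context, and that of the other marker, Aqp4, is not shown. The sequences are those of RefSeq on the GRCm38.p6 build, from 250 bases before to 50 bases after the start of the gene in the RefSeq annotation, on the plus strand. They were searched on both strands for a short nuclear factor I site (TTGGCA), the full nuclear factor I site (TTGGC and GCCAA with 5 bases between them), a SOX core (ACAAAG) and a TATA box (TATAAA), the first 3 because Nfia and Sox9 were among the listed genes. Capitals mark a match.
Slc6a11 promoter, chr6:114130991-114131290: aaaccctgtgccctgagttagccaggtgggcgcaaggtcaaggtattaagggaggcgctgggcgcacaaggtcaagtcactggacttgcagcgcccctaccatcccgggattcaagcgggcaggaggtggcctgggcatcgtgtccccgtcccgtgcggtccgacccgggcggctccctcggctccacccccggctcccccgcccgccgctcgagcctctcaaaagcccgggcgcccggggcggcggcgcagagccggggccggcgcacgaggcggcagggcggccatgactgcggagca
Ntsr2 promoter, chr12:16653220-16653519: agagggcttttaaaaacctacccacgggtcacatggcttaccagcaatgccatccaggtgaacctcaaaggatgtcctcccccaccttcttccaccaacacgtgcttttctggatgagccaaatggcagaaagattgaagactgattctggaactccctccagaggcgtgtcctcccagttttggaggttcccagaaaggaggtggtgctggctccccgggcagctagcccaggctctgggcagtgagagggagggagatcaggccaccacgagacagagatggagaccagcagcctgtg
Gpc5 promoter, chr14:115091965-115092264: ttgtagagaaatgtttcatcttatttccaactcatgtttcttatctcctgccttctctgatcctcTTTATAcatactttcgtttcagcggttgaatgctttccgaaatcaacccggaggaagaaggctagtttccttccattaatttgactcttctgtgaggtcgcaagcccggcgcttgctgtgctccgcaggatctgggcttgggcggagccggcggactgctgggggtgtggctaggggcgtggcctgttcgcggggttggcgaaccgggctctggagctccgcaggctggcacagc
The only match was a TATA box on the opposite strand of the Gpc5 promoter, at bases 66 to 71. Of 32851 promoters of the same length, 14.1% held the short site, 0.0365% the full site, 18.7% the SOX core and 13.6% the TATA box. The GC content was 72.3% for Slc6a11, 56.3% for Ntsr2 and 54.7% for Gpc5, and the median over all promoters was 52.7%. In GENCODE release M21 on GRCm38, Slc6a11 spans chr6:114131241-114249952, Ntsr2 chr12:16653382-16660227 and Gpc5 chr14:115092215-116525179, all protein-coding genes on the plus strand. For Ntsr2 the RefSeq start, from which the window was taken, lies downstream of the GENCODE start. A missing match says only that these letters are not in this window.

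Many nuclei of cluster 9 carried neuronal RNA, and other clusters of glial and vascular markers held it too. At full depth, 39.9, 74.9 and 44.0% of cluster 9 nuclei in mice 1, 2 and 3 had a Syt1 UMI. A Gad1 UMI was found in 31.9, 63.3 and 25.1%. The neuron list summed to a mean of 4952 CPM in cluster 9, 4714 CPM in cluster 11, 3315 CPM in cluster 16, 4327 CPM in cluster 18, 4324 CPM in cluster 19 and 6079 CPM in cluster 20. Nuclei with at least 40 UMIs of the neuronal genes Syt1, Snap25, Rbfox3 and Nrxn3 per 10000 UMIs were called neuron-rich, a threshold chosen after the values had been seen, and 7, 40 and 7 nuclei lay between 30 and 50 in mice 1, 2 and 3. Neuron-rich nuclei made up 23 of 188 nuclei in mouse 1 (12.2%), 234 of 757 in mouse 2 (30.9%) and 20 of 191 in mouse 3 (10.5%). Mouse 2 held the larger share in these libraries, with an exact 95% interval of 27.6 to 34.3% that lay above those of mouse 1 (7.92 to 17.8%) and mouse 3 (6.51 to 15.7%), counting error only. Each of these nuclei also had at least 1 UMI of the 4 astrocyte markers at full depth. As a background, 12.9% of nuclei of GABAergic cluster 0 had a Gpc5 UMI and 6.17% a Slc6a11 UMI (means of the mice). The 4 markers together stood at 3356, 3270.1 and 4320 CPM in neuron-rich nuclei and at 11530, 10162 and 11450 CPM in the other nuclei, with no overlap between the 2 kinds. Median UMI numbers went the other way, at 8797, 11750 and 12829 in neuron-rich nuclei and at 3550, 4344 and 5765 in the others.

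The GABAergic markers Gad1 and Meis2 were higher in neuron-rich nuclei in every mouse. Gad1, which encodes a GABA-synthesising enzyme and played no part in the threshold, stood at 538, 527 and 397 CPM in neuron-rich nuclei and at 102, 201 and 51.7 CPM in the others. Meis2, a homeobox gene of OB interneurons, stood at 1979, 2198 and 2187 CPM in neuron-rich nuclei and at 503, 700.4 and 509.6 CPM in the others. The vesicular glutamate transporter gene Slc17a7 was at 91.3, 41.1 and 17.9 CPM and at 45.8, 44.1 and 25.9 CPM, so its order differed between mice. Whether neuron-rich nuclei hold 2 nuclei in 1 droplet or free RNA was not tested. Results below are given with all nuclei. Without neuron-rich nuclei, the log2 ratios to the rest of 76 of the 211 named genes moved by more than the SD between mice, and values without these nuclei are given for some results only.

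**Figure D2:**
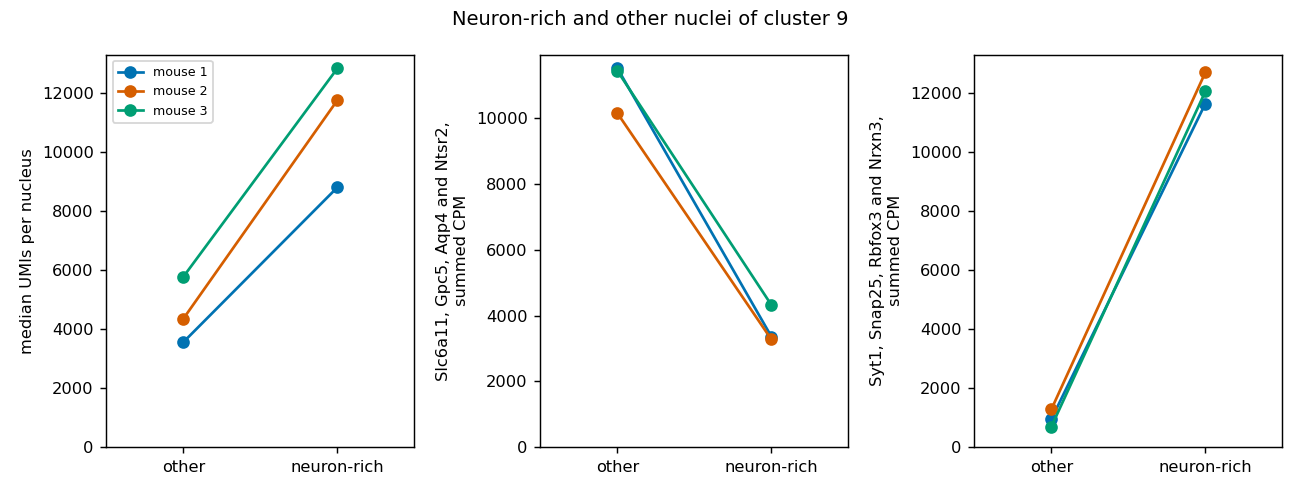
Median UMIs per nucleus, summed CPM of the 4 astrocyte markers and summed CPM of the 4 neuronal genes (y axes, linear, from 0) in neuron-rich and other nuclei of cluster 9 (x axis), with 1 line per mouse. The neuronal genes were used for the split, whereas the astrocyte markers fell from between 10162 and 11530 CPM to between 3270.1 and 4320 CPM.

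Across the transcriptome, cluster 9 was set against all other nuclei of the same mouse as the log2 ratio of CPM with 5 CPM added to both. A gene was counted as higher or lower where the ratio was at least 2-fold in that direction in every mouse. Of 15174 genes with at least 10 UMIs in cluster 9 or at least 10 CPM over all nuclei, 1054 (6.95%) were higher and 386 (2.54%) were lower, and the median ratio over all genes was 0.04. A further count, of genes whose level was highest in cluster 9 among the 20 other clusters with at least 10 nuclei in each mouse and this in every mouse, gave 436 genes (2.87%). The count of lower genes depended on mouse 2 and on neuron-rich nuclei. It was 1018 without mouse 2 and 1167 without neuron-rich nuclei, while the count of higher genes was then 1302 and 1345. Set against the unweighted mean of the other clusters, 770 genes were higher and 402 lower, of which 758 and 196 were among those called here.

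The leading genes by the mouse closest to 0 included the 4 markers and 6 further genes, all highest in cluster 9 except Mertk. Plpp3, a lipid phosphate phosphatase gene, stood at 1553, 1001 and 1555 CPM and its log2 ratio was 5.95 ± 0.56 (SD, n = 3). Hs3st3a1, a heparan sulfate sulfotransferase gene, stood at 253, 236 and 293 CPM and was the most even of these genes between mice, at 5.38 ± 0.14. Slc39a12, a zinc transporter gene, stood at 334, 230.4 and 434 CPM with a ratio of 5.40 ± 0.37. With 1 CPM added in place of 5, the log2 ratio of Hs3st3a1 was 6.80 and that of Slc39a12 6.42, and 72 of the 211 named ratios moved by more than the SD between mice. In other nuclei these 3 genes stood at 17 ± 3.42, 1.34 ± 0.0637 and 2.78 ± 0.436 CPM. The others were Mertk (log2 ratio 5.59 ± 0.43), an engulfment receptor gene, S1pr1 (5.47 ± 0.44), a receptor for sphingosine-1-phosphate, and Slc7a10 (5.45 ± 0.36), a transporter of small neutral amino acids. The mean level of Mertk was higher still in microglia-like cluster 20, at 1040 ± 674 CPM. Its log2 ratio of cluster 9 to cluster 20 was -0.82 ± 1.07, a wide spread between mice. At the other end lay Ndst4 (-3.09 ± 1.31), Kif26b (-2.69 ± 0.68), Cntn4 (-2.67 ± 1.09) and the noncoding transcripts Gm45895 (-2.64 ± 0.66) and Gm42303 (-2.54 ± 0.57). Without neuron-rich nuclei these 5 stood lower still, from -3.36 for Cntn4 to -4.10 for Kif26b. Each of these 5 was highest in cluster 2, 13 or 14. Gm42303 is annotated as antisense, and whether the counting used strand is not given in the sources used here, so its reads may include those of the opposite gene.

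Genes were then followed by their roles in astrocytes, in 16 lists that together hold 215 genes. Of these, 203 passed the filter, and 112 of the 203 were higher, 1 was lower and 47 were highest in cluster 9, against 6.95%, 2.54% and 2.87% of all genes, which are also the shares to set beside the count of each list below. The median log2 ratio of the 203 was 1.56, against 0.04 over all genes. The lists were picked for roles in astrocytes and include the markers Slc6a11, Gpc5, Aqp4 and Ntsr2. Their members were chosen with earlier results of these data known. An excess of the listed genes over all genes therefore follows in part from this choice. The counts describe the lists and are no independent check of the label.

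**Figure D3:**
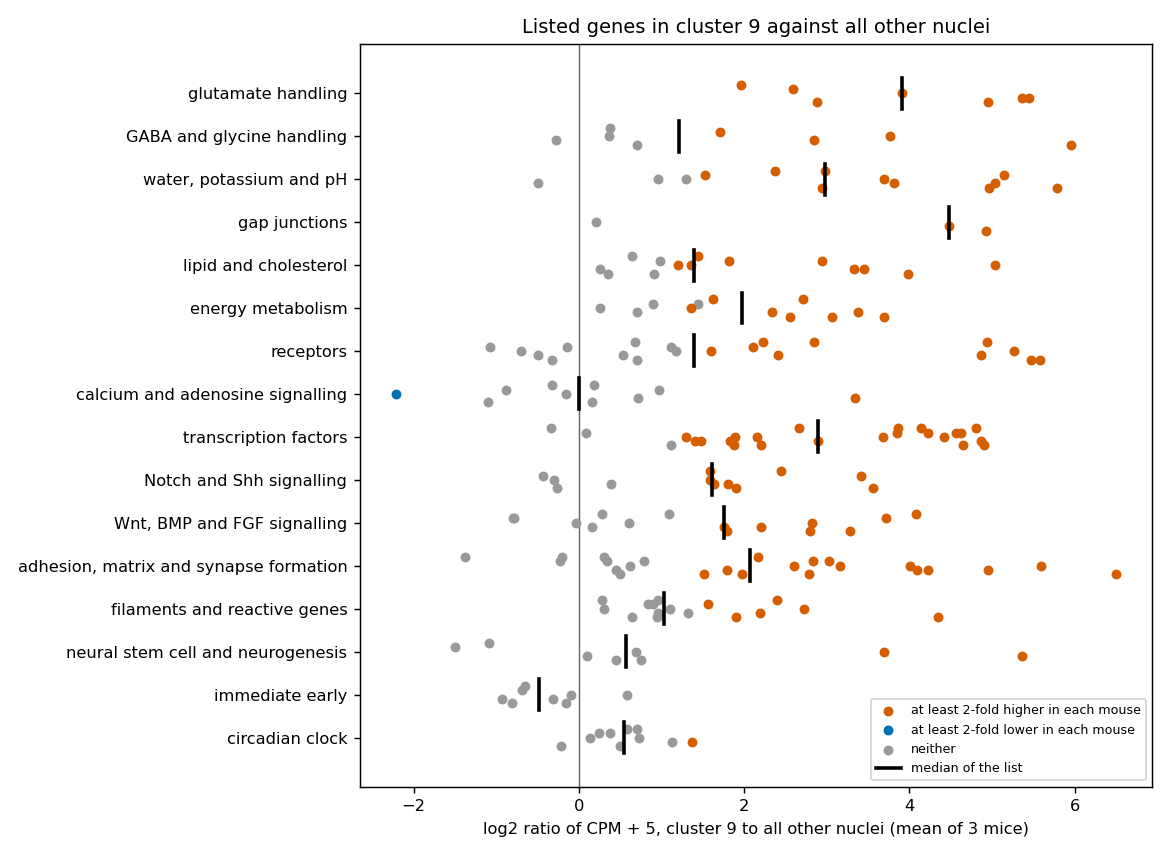
Log2 ratio of CPM + 5 in cluster 9 to all other nuclei (x axis, mean of 3 mice) for each listed gene that passed the filter, by list (y axis), coloured by whether the ratio was at least 2-fold in every mouse. The black bar is the median of the list, which runs from -0.49 for immediate early genes to 4.48 for the 3 gap junction genes.

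Glutamate uptake and conversion genes were the most uniform list. All 7 of its genes were higher, 4 were highest in cluster 9, and the median log2 ratio was 3.91. Slc1a2 (GLT-1), the main glutamate transporter of the forebrain, stood at 1855, 1119.5 and 1977 CPM against 48.1 ± 13.5 CPM in other nuclei, a log2 ratio of 4.95 ± 0.36. Slc1a3 (GLAST) stood at 2279, 1463 and 2090 CPM against 41.9 ± 4.62 CPM, a log2 ratio of 5.36 ± 0.46. No mouse overlapped with the rest for either transporter. Glul, the glutamine synthetase gene, stood at 807, 523 and 838 CPM but was nearly as high in clusters 11 (649 ± 142 CPM), 16 and 18, so that it did not set cluster 9 apart from these. Slc7a10 and glutamate dehydrogenase (Glud1) were highest in cluster 9 as well. Glud1 had a ratio of 2.60 ± 0.30, and its level elsewhere stayed at or below 114 CPM. The glutamine carrier Slc38a3 (1.96 ± 0.14) and the cystine-glutamate exchanger Slc7a11 (2.89 ± 0.50) were also higher, the latter with its highest level in cluster 18 (984 ± 165 CPM).

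Genes of inhibitory transmitter handling were divided. Of 9 genes 8 passed, 4 were higher and the median log2 ratio was 1.21. The higher genes included Slc6a11, the glycine transporter Slc6a9 (GlyT1; 236, 131 and 189 CPM; log2 ratio 3.77 ± 0.33) and the monoamine oxidase gene Maob (25.2, 16.2 and 35.5 CPM; 1.71 ± 0.32). Slc6a11 and Slc6a9 were highest in cluster 9, whereas Maob was higher in cluster 11, at 64.8 ± 26.2 CPM. The GABA-degrading enzyme genes Abat (0.38 ± 0.34) and Aldh5a1 (0.71 ± 0.44) and the GABA-B receptor genes Gabbr1 (-0.28 ± 0.20) and Gabbr2 (0.37 ± 0.32) stayed under the 2-fold limit in at least 1 mouse. Slc6a13, a GABA transporter of fibroblasts and other border cells, had no UMI in cluster 9 in any mouse, and stood at 444 ± 117 CPM in cluster 18.

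Genes of water, potassium and pH control were higher in 10 of 13 cases, and 4 were highest in cluster 9, with a median log2 ratio of 2.98. Beside Aqp4 (5.79 ± 0.49), Mlc1, whose product forms a complex with GlialCAM at astrocyte contacts, stood at 255, 191 and 262 CPM and reached at most 12.05 CPM in any other cluster. Its partner gene Hepacam stood at 518, 333 and 564 CPM but was also present in cluster 16 (316 ± 59.01 CPM). The inward rectifier genes Kcnj10 (Kir4.1; 151, 91.6 and 134 CPM) and Kcnj16 (Kir5.1; 103, 64.2 and 103 CPM) were higher than in the rest but shared with other glia. Kcnj10 stood at 105 ± 17.01 CPM in cluster 16 and 89.1 ± 31.4 CPM in cluster 11, which is close to the lowest mouse of cluster 9. The bicarbonate transporter Slc4a4 (2511, 1662 and 2358 CPM) was high in cluster 9 and of similar level in cluster 11, at 1939.5 ± 204 CPM. The chloride importer Slc12a2, the carbonic anhydrase Car2 and the chloride channel Clcn2 did not reach 2-fold in every mouse, with ratios of -0.49 ± 0.29, 0.96 ± 0.22 and 1.29 ± 0.43.

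The astrocytic connexins were both present and were shared with other clusters. Gja1 (connexin 43) stood at 659, 374 and 665 CPM against 13.2 ± 1.99 CPM in the rest, a log2 ratio of 4.93 ± 0.56. Its level in cluster 11 was 847, 358 and 553 CPM, which overlapped with cluster 9. Gjb6 (connexin 30) stood at 193, 95.7 and 190.3 CPM, a ratio of 4.48 ± 0.55, and at 16.9 ± 2.49 CPM in cluster 11, below every mouse of cluster 9. Its mean level was highest in cluster 18, at 316 ± 108 CPM. Gjb2 (connexin 26) was low, at 5.26, 2.23 and 0 CPM, while it reached 50.7 ± 13.95 CPM in cluster 11 and 94.6 ± 67.6 CPM in cluster 18.

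Lipid genes were mixed. Of 15 genes 14 passed, 9 were higher, and 2 (Clu and Acsbg1) were highest in cluster 9; the median log2 ratio was 1.40. Apoe, which encodes the main lipid carrier of the brain, stood at 10531, 6588 and 9244 CPM in cluster 9 and at 22993 ± 10344 CPM in cluster 11, a log2 ratio of cluster 9 to cluster 11 of -1.33 ± 0.40. Clu (clusterin) stood at 608, 444 and 512 CPM and its ratio was 3.45 ± 0.29, and Acsbg1, an acyl-CoA synthetase gene, had a ratio of 5.04 ± 0.54. The fatty-acid-binding protein gene Fabp7 was higher than in the rest (1.81 ± 0.56), but far lower than in cluster 11 (log2 ratio -3.38 ± 0.42). Among genes of cholesterol synthesis, Hmgcs1 (0.35 ± 0.19), Dhcr7 (0.64 ± 0.24) and Sqle (0.91 ± 0.21) did not pass the 2-fold rule, whereas the regulator Srebf1 (2.95 ± 0.34) did.

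Of 12 genes of energy metabolism, 8 were higher and 4 were highest in cluster 9, with a median log2 ratio of 1.98. Aldh1l1, a folate enzyme gene that is widely used as an astrocyte marker, stood at 89.4, 66.6 and 95.9 CPM and at no more than 11.8 CPM elsewhere. The glycogen phosphorylases Pygb (192, 174 and 242 CPM; log2 ratio 2.71 ± 0.18) and Pygm (77.8, 48.4 and 64.2 CPM; 3.06 ± 0.33) and the glycogen-targeting phosphatase subunits Ppp1r3c (53.6, 37.97 and 59.7 CPM; 2.55 ± 0.18) and Ppp1r3g (25.2, 10.8 and 33.2 CPM; 2.33 ± 0.66) passed the rule in every mouse. Glycogen synthase Gys1 (0.71 ± 0.11), the lactate dehydrogenases Ldha (0.90 ± 0.29) and Ldhb (0.25 ± 0.21) and the lactate transporter Slc16a1 (1.44 ± 0.49) did not. The glycolytic enzyme gene Aldoc stood at 418, 253 and 389 CPM in cluster 9 and at 345 ± 123 CPM in cluster 11.

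Receptor genes were divided. Of 20 genes 10 were higher, 7 were highest in cluster 9 and the median log2 ratio was 1.39. Fgfr3, a receptor for fibroblast growth factors, stood at 196, 116 and 196 CPM and at no more than 8.50 CPM in any other cluster. S1pr1 stood at 390.1, 231 and 358 CPM, and Ednrb, the endothelin B receptor gene, at 428, 307 and 341 CPM. Both lay above every other cluster, the nearest being cluster 18 for S1pr1 (85.01 CPM) and cluster 19 for Ednrb (121 CPM). The orphan receptor gene Gpr37l1 had a ratio of 4.94 ± 0.56, and the metabotropic glutamate receptor Grm3 one of 2.41 ± 0.32. Grm5, the other metabotropic receptor listed, stood at 528, 536 and 369 CPM against 772 ± 90.2 CPM in the rest, and its ratio moved from -0.70 to -1.67 without neuron-rich nuclei. Gria2, an AMPA receptor subunit gene, was highest in cluster 9 in every mouse, at 2882, 2940.2 and 3601 CPM against 1384 ± 133 CPM, although the ratio of 1.18 ± 0.17 missed 2-fold in 1 mouse. The adrenergic receptor genes Adra1a (-0.33 ± 0.068), Adra1b (-0.49 ± 0.14) and Adrb1 (-0.15 ± 0.26) did not pass the 2-fold rule, and Adra2a was higher (1.60 ± 0.32). Genes of calcium and adenosine signalling were near the shares over all genes (6.95% higher and 2.54% lower), with 1 of 10 higher (Itpr2, an IP3 receptor gene, 3.34 ± 0.43), 1 lower (the ryanodine receptor gene Ryr3, -2.22 ± 0.63) and a median of -0.00089.

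Transcription factor genes of the astrocyte lineage were higher in 22 of 25 cases, with none lower, 9 highest in cluster 9 and a median log2 ratio of 2.89. Sox9, a factor that directs glial fate, stood at 177, 125 and 244 CPM and at no more than 26.4 CPM in another cluster. Rorb, a nuclear receptor gene, stood at 916, 788 and 1255 CPM against 36.2 ± 4.33 CPM. Id4 (236, 159 and 281 CPM) and Otx1 (21.03, 10.8 and 22.7 CPM) were near 0 in other glia, and Otx1 reached at most 1.06 CPM elsewhere. Nfia, a nuclear factor I gene that promotes gliogenesis, stood at 1201, 823 and 1238 CPM. Its level was similar in cluster 18 (895 ± 180.3 CPM) and cluster 11 (856 ± 105 CPM), while GABAergic cluster 0 was at 9.25 CPM. Npas3 (4.86 ± 0.58), Rfx4 (3.86 ± 0.48), Gli2 (4.23 ± 0.36) and Gli3 (4.80 ± 0.39) were also highest in cluster 9. Sox6 and Tcf7l2 were higher still in OPC-like cluster 19, at 1104 ± 251 and 979 ± 617 CPM, against 437 ± 79.04 and 447 ± 116 CPM in cluster 9. The Notch target Hes5 stood at 310.2, 176 and 338 CPM in cluster 9 and at 682 ± 289 CPM in cluster 11. Sox5 (0.081 ± 0.35), Emx2 (-0.33 ± 0.42) and Lhx2 (1.12 ± 0.23) were the 3 that did not pass. Olig2, a factor of the oligodendrocyte lineage that served as a marker of another class, was present at a low level, 18.9, 14.9 and 22.7 CPM, against 2.11 ± 1.52 CPM in the rest and 263 ± 56.9 CPM in cluster 19.

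Genes of developmental signalling were followed in 2 lists. In the Notch and Sonic hedgehog list 8 of 12 genes were higher and 2 were highest in cluster 9 (median 1.61). Notch1 stood at 115, 62.7 and 86.9 CPM, Smo, the hedgehog signal transducer, at 55.7, 55.1 and 87.6 CPM, and Ptch1, the hedgehog receptor, at 227, 188 and 247 CPM. The mice did not overlap with the rest for any of these 3 genes. The Notch ligand gene Jag1 was higher as well (1.58 ± 0.29), while Dll1 (-0.43 ± 0.41) and the hedgehog antagonist Hhip (0.39 ± 0.31) were not. In the Wnt, BMP and FGF list 15 of 16 genes passed and 8 were higher (median 1.76). They were the receptors Fzd1, Fzd2, Bmpr1a and Bmpr1b, the modulator Daam2, the ligand Fgf1 and the FGF-induced genes Spry2 and Etv4. Etv4 stood at 125, 74.1 and 115 CPM and Spry2 at 177, 88.03 and 167 CPM, both above every other cluster in each mouse. The ligands Bmp6 (-0.79 ± 0.48) and Bmp7 (0.28 ± 0.62) did not pass, and both were high in clusters 11 and 18.

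Of 26 genes of adhesion, extracellular matrix and synapse formation, 24 passed, 15 were higher, none was lower and 6 were highest in cluster 9, with a median log2 ratio of 2.08. Lsamp, a cell adhesion molecule gene, stood at 9483, 7030.1 and 10892 CPM and at a similar level in OPC-like cluster 19 (8249 ± 362 CPM). The perineuronal matrix genes Bcan (635, 352 and 573 CPM) and Ncan (299, 159 and 290.0 CPM) were highest in cluster 9. Chrdl1, whose product promotes synapse maturation, stood at 111, 74.1 and 92.9 CPM against 1.03 ± 0.150 CPM, and Sparcl1 (hevin) at 1348, 1012 and 1578 CPM against 154 ± 13.3 CPM. Tenascin C (Tnc) was higher (68.3, 56.2 and 87.6 CPM against 3.36 ± 0.718 CPM), while tenascin R (Tnr) did not pass (-0.23 ± 0.099) and stood at 5148 ± 773 CPM in cluster 19. The synaptogenic thrombospondin genes Thbs1, Thbs2 and Thbs4 were each at or below 5.26 CPM. The engulfment receptor genes Megf10 (202, 104 and 174 CPM) and Mertk (589, 370.4 and 591 CPM) were both higher than in the rest, and Megf10 was also present in clusters 11 and 16.

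Intermediate filament and reactive astrocyte genes were mixed. Of the 19 list members found in the files 16 passed, 6 were higher and 1, Gfap, was highest in cluster 9 (median 1.03). Gfap, the classical filament gene of astrocytes, stood at 158, 117 and 184 CPM against 2.66 ± 0.287 CPM. Vim was higher too (63.1, 29.2 and 45.3 CPM), and Nes, the filament gene of precursors, had no UMI in any mouse. The complement gene C4b stood at 57.8, 40.6 and 21.1 CPM, the cytokine receptor gene Tnfrsf1a at 26.3, 23.4 and 35.5 CPM and the alarmin gene Il33 at 44.2, 25.3 and 66.5 CPM, and these 3 were higher. Lcn2, a gene of strongly reactive astrocytes, had 30 UMIs in mouse 1 and none in mice 2 and 3. All 30 lay in 1 nucleus of 6211 UMIs, which also held 18 of the 28 Serpina3n UMIs of mouse 1. It held 10 Gfap, 5 Aqp4 and 10 Gpc5 UMIs and no Syt1 UMI as well. Slc6a11, with a UMI in 91.5% of cluster 9 nuclei of mouse 1 at full depth, had none in it. The Serpina3n level of 29.4 CPM in mouse 1, against 1.86 and 3.78 CPM in mice 2 and 3, therefore rested mostly on that nucleus. Fkbp5 (115, 93.8 and 144 CPM; log2 ratio 1.10 ± 0.23) and Stat3 (86.2, 76.5 and 99.7 CPM; 0.65 ± 0.079) did not pass the 2-fold rule. C3 had 1 UMI in all nuclei of cluster 9.

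Genes of stem cells, activity and the clock are set against the 6.95% higher and 2.54% lower of all genes. Of 12 genes of neural stem cells and neurogenesis 8 passed and 2 were higher, Slc1a3 and the growth factor receptor gene Egfr (198, 148 and 231 CPM; log2 ratio 3.69 ± 0.34). The proliferation genes Mki67 (2.10, 0.558 and 0 CPM) and Top2a (0, 0.372 and 0 CPM) did not exceed the limit of 3 counts in any mouse. Of 8 immediate early genes, which respond to activity, none was higher or lower, and the median ratio was -0.49. It moved to -1.09 without neuron-rich nuclei. Of 11 clock genes 10 passed and 1, Per2, was higher (47.3, 47.8 and 58.2 CPM; 1.36 ± 0.15), with a median of 0.54.

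Cluster 9 was next compared with ensheathing-glia-like cluster 11, which had 972 nuclei. Likeness between clusters was not measured. The astrocyte list summed to a mean of 1676 CPM in cluster 11, 1734 CPM in cluster 19 and 1517 CPM in cluster 18. Cluster 18 was not compared by this rule. By the same rule 594 of 15174 genes (3.91%) were higher in cluster 9 than in cluster 11 and 571 (3.76%) were lower. Without the expression filter, 594 genes were higher and 685 lower, so the balance of the 2 counts depended on the filter. Without mouse 2, the higher count was 904. Among the 203 listed genes 66 were higher in cluster 9, 18 were lower and 119 were neither. Of the transcription factors 16 of 25 were higher and 0 lower, of the receptors 9 of 20 were higher and 2 lower, and of the glutamate handling genes 5 of 7 were higher and 0 lower. The water, potassium and pH list had 3 of 13 higher, and lipid genes 2 of 14 higher and 1 lower. Of the filament and reactive genes 2 of 16 were higher and 4 lower, and of the Notch and Sonic hedgehog genes 2 of 12 were higher and 3 lower. The adhesion, matrix and synapse formation list had 12 of 24 higher and 5 lower. Among the genes named above, high ratios were those of Gpc5 (log2 ratio of cluster 9 to 11 of 7.23 ± 0.70), Slc6a11 (6.08 ± 1.00), S1pr1 (5.44 ± 0.85), Aqp4 (5.47 ± 0.44) and Rorb (5.83 ± 0.77). In the other direction lay Hey2 (-3.63 ± 0.28), a Notch target gene, Bmp7 (-3.92 ± 0.53), Fabp7 (-3.38 ± 0.42), Serpina3n (-2.74 ± 0.30) and the matrix gene Sparc (-2.58 ± 0.43). Gja1 (-0.010 ± 0.32), Aldoc (0.056 ± 0.40) and Glul (0.15 ± 0.12) passed the rule in neither direction.

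**Figure D4:**
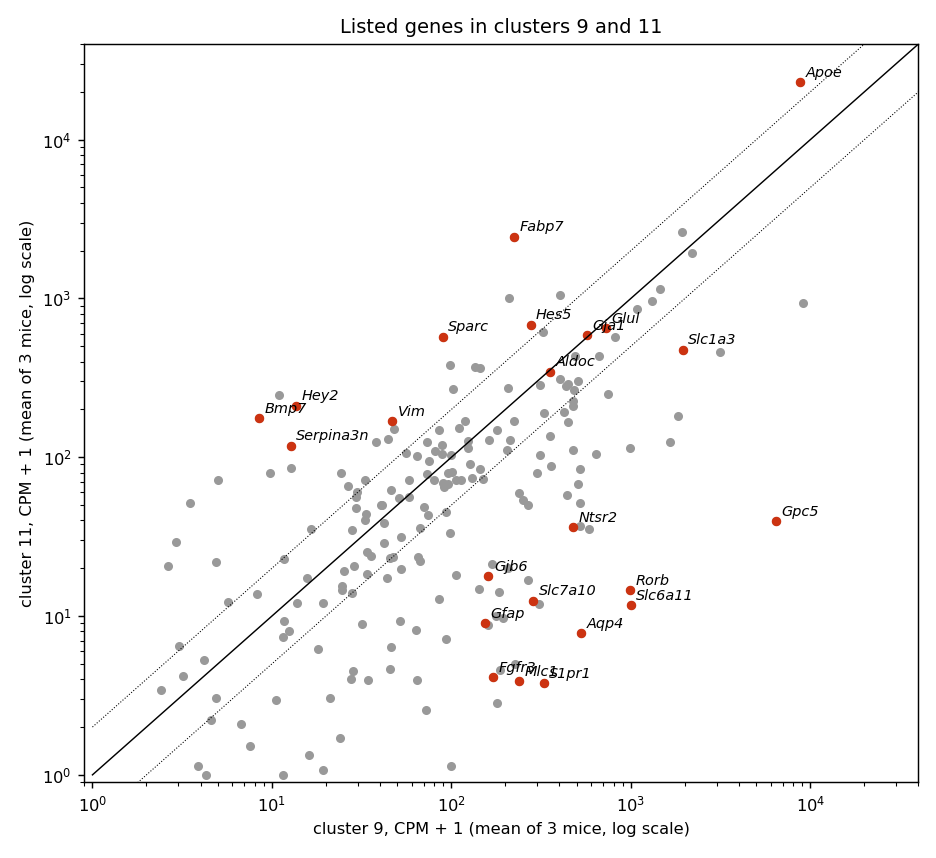
Mean level over 3 mice in cluster 9 (x axis) and in cluster 11 (y axis) of the 203 listed genes that passed the filter, as CPM + 1 on log axes, with selected genes in red, the line of equality solid and 2-fold lines dotted. Gja1, Aldoc and Glul lie between the 2-fold lines, Gpc5, Slc6a11, Aqp4 and Fgfr3 far below them, and Fabp7, Sparc and Hey2 above them.

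The same rule was applied to the other glial clusters. Against oligodendrocyte-like cluster 16, with 282 nuclei, 1083 genes (7.14%) were higher and 578 (3.81%) were lower, and of the listed genes 101 were higher and 7 lower. The glutamate receptor gene Grm3 stood at 268 ± 45.7 CPM in cluster 9 and 698 ± 233 CPM in cluster 16. Against OPC-like cluster 19, with 151 nuclei, 763 genes (5.03%) were higher and 474 (3.12%) were lower, and of the listed genes 84 were higher and 11 lower, among them Tnr (-4.08 ± 0.11) and Prom1 (-3.53 ± 0.64). Against microglia-like cluster 20, with 146 nuclei, 855 genes (5.63%) were higher and 530 (3.49%) were lower, and of the listed genes 95 were higher and 4 lower. This last split depended on the scaling, since TMM factors, which moved the median of all genes from 0.16 to 0.39, gave 1126 higher and 391 lower genes. It depended on the filter as well, with 855 higher and 786 lower without it. Under a filter of 50 UMIs or 50 CPM there were 846 higher and 362 lower. Without the filter the lower genes numbered 657 for cluster 16 and 554 for cluster 19. Leaving out mouse 2 raised the counts of higher genes to 2180, 1331 and 1770 for clusters 16, 19 and 20. The counts of lower genes rose too, to 835, 730 and 914. Mouse 2 held 207, 91 and 103 nuclei of these clusters, against 54, 50 and 19 in mouse 1 and 21, 10 and 24 in mouse 3. The counts without mouse 2 therefore rest on few nuclei of these clusters.

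Within cluster 9, detection of the marker genes was read after each nucleus had been thinned to 2000 UMIs, which left out 2, 6 and 0 nuclei of mice 1, 2 and 3. Gpc5 was detected in 98.7% ± 1.16 (SD, n = 3) of nuclei, Slc6a11 in 76.3% ± 6.13, Ntsr2 in 59.6% ± 8.92 and Aqp4 in 54.9% ± 6.94. In GABAergic cluster 0, which should lack these genes and sets the background, the shares were 3.55% ± 0.513, 2.10% ± 0.318, 0.711% ± 0.601 and 0.952% ± 0.340. All 4 shares of cluster 9 thus lay far above background. At full depth, with median UMI numbers of 3839.5 to 6063 in cluster 9, the shares were 99.4% for Gpc5, 90.3% for Slc6a11, 82.5% for Ntsr2 and 74.99% for Aqp4. Gfap was detected in a minority, 20.9% ± 4.12 of thinned nuclei, against 0.619% ± 0.176 in cluster 0. Gjb6 (25.7% ± 6.95), Slc7a10 (37.6% ± 5.83), Sox9 (29.3% ± 3.67) and Pdgfrb (15.3% ± 4.83) were likewise above their shares in cluster 0, each of which was under 1%. Syt1 was detected in 38.9% ± 16.9 of thinned nuclei of cluster 9, and mouse 2 was the highest at 58.3%. In cluster 11 the share was 39.9% ± 17.4, and mouse 2 was again the highest at 59.4%.

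The spread between nuclei was measured as the Fano factor, the variance of the thinned counts divided by their mean, which is 1 for pure counting noise. Over 163 listed genes with a mean of at least 0.05 UMIs per thinned nucleus the median Fano factor was 1.44, both with and without neuron-rich nuclei. By the mean over mice, Apoe had the highest Fano factor, with 15, 9.99 and 8.86 in mice 1, 2 and 3, followed by Lsamp (6.92, 8.75 and 6.59) and Gpc5 (4.92, 5.95 and 7.75). These were also the 3 genes with the highest means (21.7, 19.97 and 14.6 UMIs), and the Fano factor was not set against the mean. With a mean over the mice below 1 UMI per thinned nucleus, 6 genes lay above 2 in every mouse, namely Tnr (2.64, 2.94 and 2.50), Ednrb (2.44, 2.47 and 2.41), Id3 (2.45, 2.12 and 2.40), Gfap (2.51, 2.22 and 2.68), Slc8a1 (2.72, 2.41 and 2.04) and Grm5 (2.77, 2.31 and 2.57). Without neuron-rich nuclei Grm5 fell to 1.97 in mouse 2 and 1.98 in mouse 3, while the lowest values of the other 5 ranged from 2.08 to 2.66. Without neuron-rich nuclei, 34 of the 163 genes stayed above 1.5 in every mouse.

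Nuclei in which Gfap was detected after thinning were compared with the others, to see which genes varied with this filament gene among astrocyte-like nuclei. Nuclei with at least 1 Gfap UMI after thinning numbered 34, 141 and 49 in mice 1, 2 and 3, and those with none numbered 152, 610 and 142. At full depth 62, 266 and 83 nuclei had a Gfap UMI, so the undetected set was not free of Gfap, which stood there at 54.2, 47.3 and 58.7 CPM, against 690.4, 531 and 609 CPM in the detected set. The full counts of each set were summed per mouse, Gfap was left out, and the 6 libraries were tested with edgeR's quasi-likelihood test with the mouse as a block. Of 9772 genes tested, 39 (0.399%) were higher and 77 (0.788%) were lower in Gfap-detected nuclei at a Benjamini-Hochberg adjusted p under 0.05. All 39 higher genes and 76 of the 77 lower genes had the same order in the 3 mice, which a test with the mouse as a block favours. Neuronal genes moved with the split. The summed level of Syt1, Snap25, Rbfox3 and Nrxn3 was 2814, 4784 and 1238 CPM in Gfap-detected libraries and 4568, 7966 and 3639 CPM in the others, lower in each mouse. The counts are therefore given also without neuron-rich nuclei, where 11 (0.138%) of 7996 genes were higher and 3 (0.0375%) were lower, and 9 of the 39 and 2 of the 77 genes were called again. Without nuclei with a UMI of Gad1, Gad2, Slc17a7, Slc17a6 or Tbx21, none of 4672 genes was called by edgeR in either direction, and 271 were at an unadjusted p under 0.05. Each gene named below was there either tested and not called or below the count filter, as A2m was. This setting kept 16, 33 and 26 Gfap-detected nuclei of mice 1, 2 and 3, against 34, 141 and 49 with all nuclei. Whether calls were lost through the smaller number of nuclei was not tested.

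A2m, which encodes the protease inhibitor alpha-2-macroglobulin, had the largest fold change of the called genes. It stood at 52.1, 177 and 225 CPM in Gfap-detected nuclei and at 6.30, 15.5 and 14.7 CPM in the others. The groups did not overlap, and the log2 fold change was 3.57 (SE 0.29, adjusted p = 1.08e-06) by edgeR, and 3.23 (SE 0.30, adjusted p = 1.41e-05) without neuron-rich nuclei. Next by size among the higher genes were Cd44, the hyaluronan receptor gene, at 2.70 (SE 0.65, adjusted p = 0.0464), the interferon-induced GTPase gene Irgm2 at 2.10 (SE 0.50, adjusted p = 0.0393), Asap3 at 1.86 (SE 0.29, adjusted p = 0.00198) and the proton-coupled amino acid transporter gene Slc36a2 at 1.80 (SE 0.35, adjusted p = 0.00915). Cd44 had low levels, 32.6, 16.8 and 23.2 CPM against 1.26, 1.96 and 7.83 CPM, and was below the count filter without neuron-rich nuclei. Of the 5 genes, A2m and Asap3, the latter at 1.86 (SE 0.28, adjusted p = 0.00356), were called without neuron-rich nuclei. Irgm2 at 1.52 (SE 0.56, adjusted p = 0.686) and Slc36a2 at 1.41 (SE 0.38, adjusted p = 0.247) were not.

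Of 177 listed genes tested, 7 were called higher and 1 lower, against 39 (0.399%) and 77 (0.788%) of all 9772 genes. The higher genes were Aqp4 at 0.89 (SE 0.15, adjusted p = 0.00299), the transcription factor gene Id3 at 0.99 (SE 0.16, adjusted p = 0.00224), the BMP receptor genes Bmpr1a at 0.62 (SE 0.15, adjusted p = 0.0479) and Bmpr1b at 0.66 (SE 0.15, adjusted p = 0.0355), the tenascin genes Tnr at 1.03 (SE 0.17, adjusted p = 0.00224) and Tnc at 1.00 (SE 0.24, adjusted p = 0.0479), and Cd44. Aqp4 stood at 1003, 752 and 781 CPM in Gfap-detected nuclei and at 568, 324 and 487 CPM in the others, higher in 3 of 3 mice. Without neuron-rich nuclei, Id3 and Tnr were called again, at 0.72 (SE 0.14, adjusted p = 0.0355) and 1.23 (SE 0.17, adjusted p = 0.00318), and Aqp4 did not, at 0.59 (SE 0.12, adjusted p = 0.0584). Bmpr1a at 0.45 (SE 0.13, adjusted p = 0.398), Bmpr1b at 0.30 (SE 0.14, adjusted p = 0.977) and Tnc at 0.71 (SE 0.23, adjusted p = 0.549) lost it as well. Slc8a1, a sodium-calcium exchanger gene of the calcium list, was called higher without neuron-rich nuclei alone, at 1.13 (SE 0.16, adjusted p = 0.00352), against 0.061 (SE 0.15, adjusted p = 0.984) with all nuclei. The only listed gene called lower was Ryr3, at -1.67 (SE 0.30, adjusted p = 0.00537). The list medians were 0.14 for glutamate handling (0 of 7 called), -0.032 for receptors (0 of 17 called) and 0.50 for filaments and reactive genes (1 of 10 called), against 0.16 over all 177 listed genes and 0.0024 over all genes tested. Energy metabolism, transcription factors and the Wnt, BMP and FGF list each had a median of 0.30. All these medians are with neuron-rich nuclei included, and single values moved without them. Slc1a2 went from 0.10 to -0.18, Slc1a3 from 0.054 to -0.20, Glul from 0.22 to -0.044 and Sox9 from 0.46 to 0.12. Slc38a3 stayed positive, at 0.41 and 0.16. The medians are thus no evidence that these lists rise with Gfap.

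Of the 77 genes called lower in Gfap-detected nuclei, the 5 with the largest change were A830036E02Rik at -2.78 (SE 0.60, adjusted p = 0.0208), Galntl6 at -2.32 (SE 0.24, adjusted p = 3.17e-05), Gm26905 at -2.08 (SE 0.29, adjusted p = 0.00104), Olfr111 at -2.04 (SE 0.45, adjusted p = 0.0246) and Hs3st5 at -1.87 (SE 0.39, adjusted p = 0.014). Galntl6, a glycosyltransferase gene, was called again without neuron-rich nuclei, at -1.64 (SE 0.23, adjusted p = 0.00318), and the other 4 fell below the count filter there. The neuronal marker genes Syt1 at -0.87, Snap25 at -0.96 and Nrxn3 at -1.08 on the log2 scale were also called lower. Rbfox3 of the same list, at -0.65 (SE 0.25, edgeR adjusted p = 0.333), was not. The GABAergic markers Gad1 at -0.48, Gad2 at -0.34, Slc32a1 at -0.54 and Meis2 at -0.58 were not called either. Syt1, Snap25 and Nrxn3 helped to define the neuron-rich nuclei, so their values without these nuclei (0.23, -0.22 and -0.39) follow in part from the definition. The median of the 70 lower genes tested both times moved from -1.08 to -0.38 when neuron-rich nuclei were left out, and that of the 38 higher genes from 1.05 to 0.80. Without the mouse block 1 gene was called higher (and 0 lower), and without mouse 1 there were 1 higher and 1 lower.

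**Figure D5:**
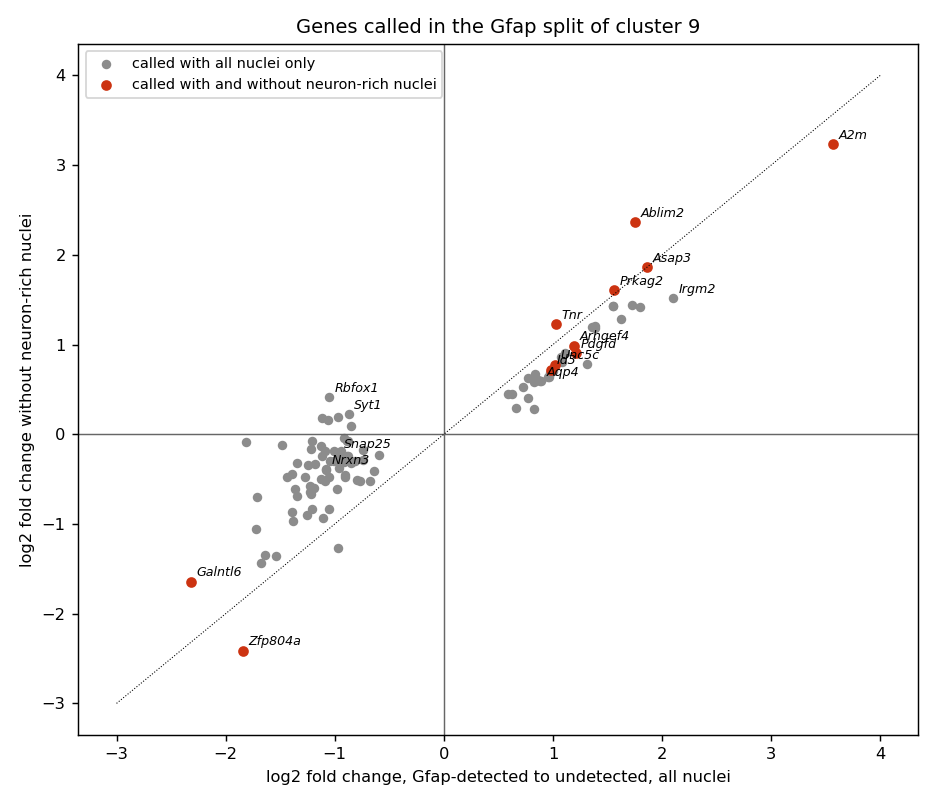
Log2 fold change of Gfap-detected to Gfap-undetected nuclei with all nuclei (x axis) and without neuron-rich nuclei (y axis), for the 38 higher and 70 lower genes that were called with all nuclei and tested in both, with genes called both times in red and the dotted line marking equality. Without neuron-rich nuclei the median of the higher genes goes from 1.05 to 0.80 and that of the lower genes from -1.08 to -0.38.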

How the data were processed

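Single-nucleus RNA of the OB of 3 mice was sequenced in 1 library per mouse (10x Chromium, Illumina HiSeq). The deposited matrices contain unnormalised UMI counts of each gene in each barcode. They were produced by the authors using Cell Ranger (version 3.0.2 in the header of the files) on mm10 (GRCm38 per the submitters' notes). The annotation release, and whether introns and strand were used in counting, are not given in the sources used here. The deposited annotation lists the retained nuclei with mouse and cluster, and the percent of mitochondrial UMIs that the authors computed. The authors had removed nuclei below 1000 genes or above 5% mitochondrial UMIs, merged the mice and clustered them in Seurat. Other columns, among them scaled totals and plotting coordinates, were not used.

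UMI counts were summed per mouse and cluster. Ratios used CPM with 5 CPM added. Counts were thinned to 2000 UMIs per nucleus with a fixed seed. The Gfap split was tested with edgeR 4.0.16 in R 4.3.3 (filterByExpr, TMM, quasi-likelihood test, mouse as block, since both libraries of a pair come from 1 animal) and p-values were adjusted by Benjamini-Hochberg over every tested gene. The study used the package glmGamPoi on its single-nucleus data, whereas here sums per mouse were tested with edgeR. No doublet caller was run beyond the gate of the sort, and nuclei of high UMI number, nuclei with neuronal or ensheathing glia markers and neuron-rich nuclei were each left out as alternatives. Others were another pseudocount (1 CPM), filter, scaling and thinning depth (1500 UMIs), DESeq2 1.42.0, no block, and leaving out each mouse. Genes named were the 4 markers, the listed genes, class markers, the 10 highest and 5 lowest ratios by the mouse closest to 0, and the 5 largest changes in each direction of the Gfap split. Members and lists were chosen with earlier results of these data known. Of 31055 gene identifiers 31011 matched GENCODE M21, and the list member Ccn1 was not matched by symbol. Some list members are not reported here by name.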

Additional observations from a re-analysis of the deposited data

Results flagged for a closer look

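Barcodes that were called as nuclei and not retained by the authors entered no comparison, and they numbered 1873, 8724 and 2123 in mice 1, 2 and 3. The summed level of Slc6a11, Gpc5, Aqp4 and Ntsr2 in them was 232 CPM in mouse 1, 222 CPM in mouse 2 and 213 CPM in mouse 3, above the limit of 3 counts (1.51, 0.425 and 1.35 CPM). The same sum was 86.5, 81.4 and 87.1 CPM in retained nuclei of the other clusters and 231, 240.5 and 294 CPM in all retained nuclei together. The sum in barcodes that were not retained thus stood close to all retained nuclei in mouse 1 and below them in mice 2 and 3. The set of other clusters is low in these markers because cluster 9 is left out of it. The sum hides differences between the markers. In mouse 2, Slc6a11, Aqp4 and Ntsr2 stood at 77.6, 51.0 and 37.4 CPM in barcodes not retained. Retained nuclei of the other clusters there had 12.3, 5.22 and 4.95 CPM. Gpc5 stood at 56.3 against 58.9 CPM. In mice 1 and 3 each marker stood above the other clusters.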

How the results depend on the processing

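Of 211 log2 ratios of named genes against the rest, 10 changed sign under an alternative, all of genes that had not passed the 2-fold rule. The Gfap split log2 fold change of Slc8a1, a member of the calcium list that was not called with all nuclei, was -0.0156 without the expression filter and -0.0184 to 0.12 with 1 mouse left out, and 1.13 (adjusted p = 0.00352) without neuron-rich nuclei, where it was called higher. Scaling by TMM moved the median of all ratios against the rest from 0.04 to -0.07 and gave 975 higher and 563 lower genes. The share of nuclei in cluster 9 was 3.14% among nuclei with at least 1500 genes. As a share of all retained nuclei, which could only fall, it was 2.97% once neuron-rich nuclei were dropped from cluster 9 (an alternative added after the values had been seen) and 1.54% once its nuclei with a UMI of Gad1, Gad2, Slc17a7, Slc17a6 or Tbx21 were dropped. Genes lower than in all other nuclei numbered 835 without nuclei of high UMI number, 1171 without nuclei with those neuronal markers, 1167 without neuron-rich nuclei, 601 with 1 CPM added and 806 after thinning. With 1 CPM added, genes higher than in clusters 16, 19 and 20 numbered 1728, 1310 and 1582. Genes lower than in cluster 11 numbered 379 under a filter of 50 UMIs or 50 CPM and 685 with no filter. Leaving out 1 mouse gave 395 to 1018 genes lower than in the rest. It gave 634 to 904 genes higher than in cluster 11, 1188 to 2180 higher than in cluster 16, 884 to 1331 higher and 560 to 730 lower than in cluster 19, and 985 to 1770 higher and 650 to 914 lower than in cluster 20, with the extreme value in each case without mouse 2 and the number of mice that had to pass as the part of the rule that changed. In the Gfap split, higher and lower genes numbered 24 and 56 with DESeq2, 47 and 170 without a filter, 17 and 27 with thinned counts, 14 and 15 with the split at 1500 UMIs, 25 and 8 without nuclei of high UMI number, 22 and 26 without nuclei with Sox10, Frzb or Npy, 11 and 3 without neuron-rich nuclei, and 1 and 0 with no replicate block, where 470 of 9772 genes were at an unadjusted p under 0.05. Without nuclei with the neuronal markers above it was 0 and 0 of 4672 genes by edgeR, with 271 at an unadjusted p under 0.05. Leaving out 1 mouse gave 1 to 39 higher and 1 to 99 lower genes, the lowest without mouse 1. The causes of these shifts were not tested. Depth limits genes near 1 UMI, which is worth 1.05, 0.186 and 0.755 CPM in cluster 9 of mice 1, 2 and 3.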
